A study of Mus musculus with 11 samples.

Results

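Leukocyte adhesion molecules and selectins were examined in liver sinusoidal endothelial cells (ECs) of mice raised without microbes (germ-free, GF) and of mice with a microbiota (conventionally raised, CONV-R). The 8 members, *Icam1*, *Icam2*, *Vcam1*, *Madcam1*, *Alcam*, *Selp*, *Sele* and *Selplg*, were taken by gene symbol from the 29307 genes of the count table. All were male C57BL/6J mice of 10 to 12 weeks on the same diet, from the same colonies, and differed in housing: GF mice (n = 5) were kept without microbes in isolators, and CONV-R mice (n = 6) under specific-pathogen-free conditions with a microbiota. ECs were enriched from dissociated liver with magnetic beads against CD146 and then sorted as CD31+, CD105+ and CD146+ cells. The study reports that GF livers gave fewer sorted ECs and less RNA than CONV-R livers, and that few sorted cells were viable. This difference in yield goes with the group. Each mouse gave 1 library, made from cDNA amplified from 20 ng of total RNA and read as single reads of 50 bases, and mouse numbers are those of the labels. Protein on the cell surface and leukocyte binding were not measured.

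Leukocytes leave the blood in steps. Selectins on the endothelium (P-selectin, encoded by *Selp*, and E-selectin, encoded by *Sele*) hold sugar-bearing ligands such as PSGL-1 (*Selplg*) and let the cell roll, and immunoglobulin-family molecules (*Icam1*, *Icam2*, *Vcam1*, *Madcam1*) then bind activated leukocyte integrins and arrest it. In most vessels microbial and cytokine signals acting through NF-kB induce *Icam1*, *Vcam1*, *Selp* and *Sele*, while *Icam2* is carried by resting endothelium. The liver sinusoid is a low-flow bed in which leukocytes can adhere with little help from selectins, and its Kupffer cells, the resident macrophages that lie against the sinusoidal ECs, also transcribe *Vcam1*.

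The 11 libraries held 7242717 to 16164588 counts, with no separation of GF from CONV-R totals (p = 0.411 in a two-sided exact permutation test). Levels are given as CPM, which are counts relative to library totals corrected by TMM. Markers of liver sinusoidal ECs were abundant in every library, with a summed level of 32917 to 41862 CPM in CONV-R and 32703 to 46827 CPM in GF mice (exact permutation test, p = 0.513). On principal components of all tested genes, CONV-R replicate 3 lay at -48.2 on the second component, where the other CONV-R libraries lay between 6.01 and 17.6. The GF libraries were spread on it too, with replicates 4, 6 and 5 at -30.2, -25.1 and -7.67 and replicates 1 and 2 at 18.8 and 26.2, and GF replicate 6 lay farthest out on the first component, at 61.2. GF replicate 2 had counts in 22674 genes, against 15456 to 18495 in the other libraries. Where a call on a member changes without a single library, the values without it are given.

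The members spanned a wide range of levels. Levels between genes were compared as RPKM, the CPM divided by the length of the gene's merged exons in kilobases, over which isoforms are not told apart. In CONV-R mice *Icam2* stood highest with 40.5 ± 9.66 RPKM (SD, n = 6), followed by *Vcam1* with 17.0 ± 3.65 and *Icam1* with 16.5 ± 2.46 RPKM. *Icam2* exceeded *Vcam1* in 6 of 6 CONV-R mice, whereas *Vcam1* exceeded *Icam1* in 3 of 6, so these neighbours did not differ beyond their spread. *Selp* with 5.43 ± 2.11 RPKM and *Alcam* with 2.02 ± 0.698 RPKM formed the middle, and each stood above the next gene in 6 of 6 mice. *Selplg*, *Sele* and *Madcam1* had 0.195, 0.177 and 0.117 RPKM, and their order changed from mouse to mouse. In GF mice the order of the means was the same, but *Vcam1* at 31.9 ± 4.06 RPKM (SD, n = 5) stood above *Icam1* at 14.5 ± 3.90 RPKM in 5 of 5 mice. Among the 12883 tested genes with a known length, the mean RPKM over all mice of *Icam2* exceeded that of 95.3% of genes, that of *Vcam1* 87.6%, *Icam1* 79.7%, *Selp* 46.7%, *Alcam* 25.2% and *Selplg* 3.4%.

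**Figure D1:**
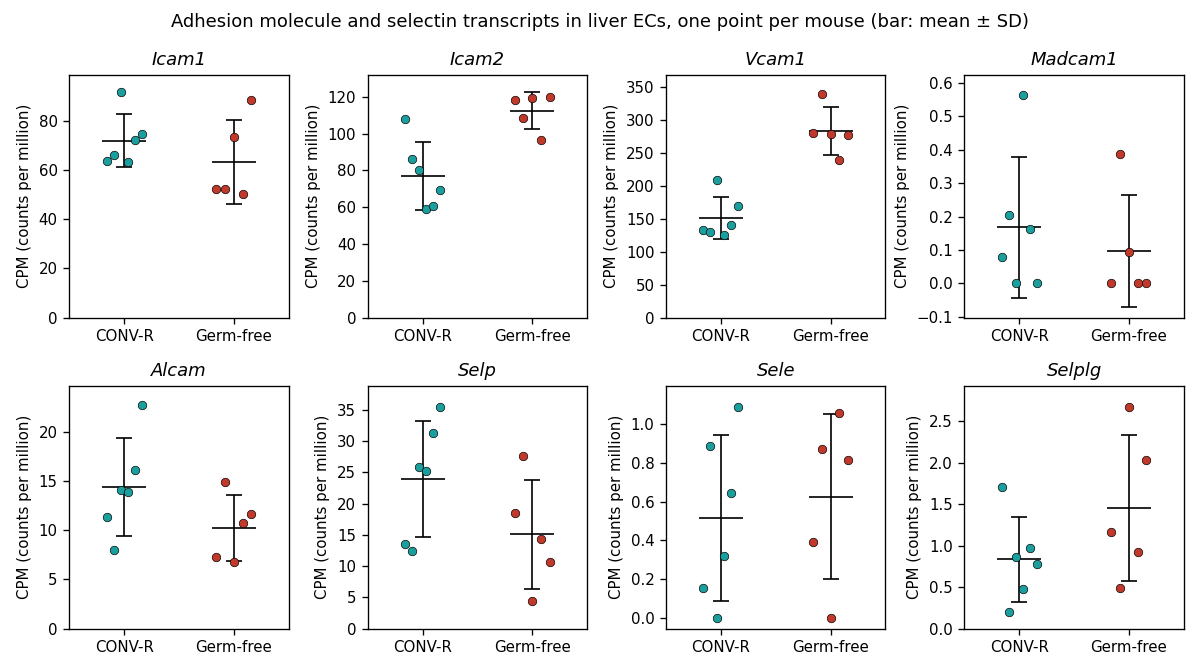
CPM of each member (vertical axes, each panel on its own scale) in CONV-R (turquoise) and Germ-free (red) mice, with 1 point per mouse and black bars for the mean ± SD. All 5 GF points of Vcam1, from 239 to 339.5 CPM, sit above all 6 CONV-R points, which reach 209 CPM; the groups of every other member overlap.

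To ask whether the microbiota is accompanied by other levels of these transcripts, counts were tested for a difference of GF from CONV-R with edgeR (quasi-likelihood test, p adjusted by Benjamini-Hochberg over 12905 genes with enough counts). *Vcam1* and *Icam2* were higher in GF mice, *Icam1*, *Selp*, *Alcam* and *Selplg* did not pass the threshold, and *Sele* and *Madcam1* had too few counts to enter the test. Of all tested genes 965 passed an adjusted p of 0.05 (7.48%), 620 of them higher (4.8%) and 345 lower (2.67%) in GF mice. In 721 genes no GF value lay within the CONV-R range and the groups stood apart (5.59%). Of the 6 members tested 2 passed, both higher, and 1, *Vcam1*, had groups that did not overlap. The Log2FC (GF over CONV-R) over all tested genes had a median of -0.0061. In RNA from a sorted population, a change in the make-up of the cells and a change of transcript per cell cannot be told apart.

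**Figure D2:**
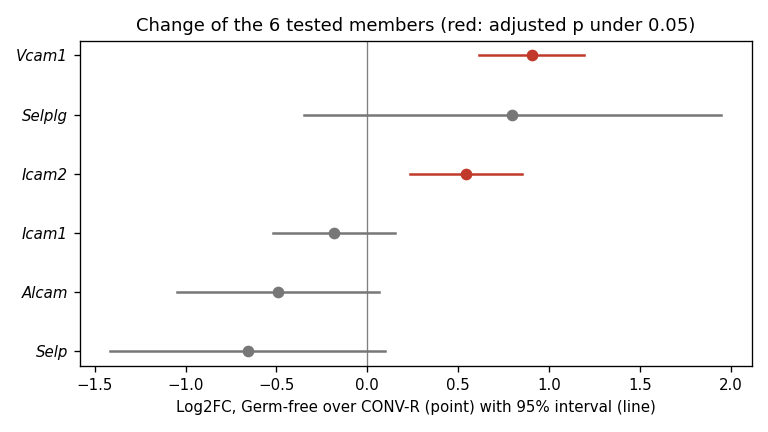
Log2FC of the 6 tested members, GF over CONV-R (horizontal axis; points), with 95% intervals (lines) from edgeR's quasi-likelihood fit. Only the intervals of Vcam1 (0.62 to 1.19) and Icam2 (0.23 to 0.85), drawn in red, lie above 0.

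*Vcam1* (vascular cell adhesion molecule 1, ENSMUSG00000027962, chr3:116109949-116129688 on the minus strand, GRCm38) encodes the endothelial ligand of the integrin VLA-4 on lymphocytes and monocytes. Its level in CONV-R mice had a lowest value of 125 CPM, a median of 137 CPM and a highest value of 209 CPM. In GF mice 1, 2, 4, 5 and 6 it was 279.5, 339.5, 278, 239 and 277 CPM. Every GF mouse stood above every CONV-R mouse, and the CONV-R mouse nearest to the GF group was replicate 3. The means were 151 ± 32.4 CPM (SD, n = 6) and 283 ± 36.0 CPM (SD, n = 5), which is a 1.87-fold higher level with a Log2FC of 0.90 (SE 0.14, 95% interval 0.62 to 1.19; edgeR's quasi-likelihood test, Benjamini-Hochberg adjusted p = 0.000661). It ranked 89th of all tested genes by p. The two-sided exact permutation test on CPM gave p = 0.00216, below which a test of 5 against 6 mice cannot go. With each mouse left out in turn the Log2FC lay between 0.83 and 1.02, with adjusted p from 5.22e-05 to 0.00289.

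Kupffer cell transcripts were higher in GF mice too. Of 12 markers of these macrophages, 11 were tested and 8 were higher in GF mice, among them *Clec4f* (35.9 to 105 CPM, Log2FC 1.55, adjusted p = 0.0262), a lectin receptor particular to Kupffer cells; *Cd5l*, a secreted macrophage protein, had a Log2FC of 1.38 (adjusted p = 0.0539). None of the 12 was at 0 in all libraries. Their summed level ran from 91.1 to 231 CPM in CONV-R and from 210 to 970 CPM in GF mice (exact permutation test, p = 0.00866). GF replicates 4 and 5 had sums of 210 and 219 CPM, inside the CONV-R range only through CONV-R replicate 1, as the next CONV-R sum was 201 CPM. Their *Vcam1* levels were 278 and 239 CPM, above every CONV-R mouse. GF replicate 2, with the second largest sum of 395 CPM, had the highest *Vcam1* level of 339.5 CPM, and GF replicate 6, with the largest sum, had 277 CPM, close to the GF median of 278 CPM. Among CONV-R mice, replicate 3 had the highest *Vcam1* level of 209 CPM with a sum of 91.8 CPM. Replicate 1, with the largest CONV-R sum of 231 CPM, had 133 CPM of *Vcam1*. The part of Kupffer cells in the *Vcam1* level was not tested beyond these values and the following fit. With log2 of the summed level as a covariate, a fit chosen after seeing the data, the Log2FC of *Vcam1* was 0.87 (SE 0.21) and its adjusted p 0.0766, while the number of genes passing fell from 965 to 91. No member passed edgeR's adjusted p in that fit, and 2 of 6 had an unadjusted p under 0.05, *Vcam1* with 0.000713 and *Alcam* with 0.0230 (Log2FC -0.93, SE 0.37, adjusted p = 0.424); the other tools were not run with the covariate.

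**Figure D3:**
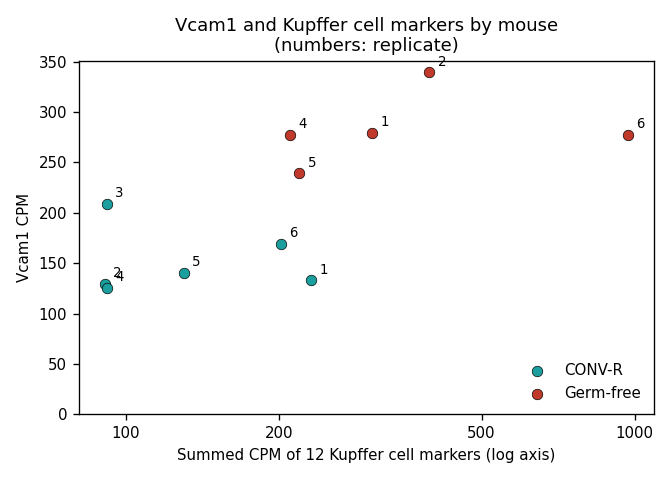
Vcam1 CPM (vertical axis) against the summed CPM of 12 Kupffer cell markers (horizontal log axis) in each CONV-R (turquoise) and Germ-free (red) mouse, numbered by replicate. Germ-free replicates 4 and 5 have marker sums of 210 and 219 CPM, within the CONV-R range only through CONV-R replicate 1 (231 CPM). Their Vcam1 levels of 278 and 239 CPM lie above every CONV-R mouse.

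*Icam2* (intercellular adhesion molecule 2, ENSMUSG00000001029, chr11:106377656-106388075, minus strand) encodes a ligand of the leukocyte integrin LFA-1 that resting endothelium carries at its junctions and surface. CONV-R mice had a lowest level of 59.1 CPM, a median of 74.7 CPM and a highest level of 108 CPM. The GF mice, in the order of their numbers, had 118, 109, 119, 96.5 and 119.9 CPM. Only GF replicate 5 fell within the CONV-R range, through CONV-R replicate 1, and the other 4 stood above every CONV-R mouse. Means of 77.2 ± 18.4 CPM (SD, n = 6) and 112 ± 10.01 CPM (SD, n = 5) gave a 1.46-fold higher level (Log2FC 0.54, SE 0.15, 95% interval 0.23 to 0.85; edgeR's quasi-likelihood test, Benjamini-Hochberg adjusted p = 0.0316; exact permutation test on CPM, p = 0.00866). This call lay close to the threshold and was lost when certain mice were left out 1 at a time. Without CONV-R replicate 4, 5 or 6, or GF replicate 1, 2, 4 or 6, the adjusted p was 0.0798, 0.0752, 0.0716, 0.0646, 0.0525, 0.0630 and 0.0760, in that order, with a Log2FC of 0.47 to 0.56. With the Kupffer marker sum as a covariate the Log2FC was 0.38 (adjusted p = 0.646).

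*Icam1* (intercellular adhesion molecule 1, ENSMUSG00000037405, chr9:21015985-21028817, plus strand) encodes the inducible ligand of LFA-1 and Mac-1. It had a lowest level of 63.2 CPM, a median of 69.2 CPM and a highest level of 91.7 CPM in CONV-R mice. In the GF mice the levels were 52.2, 52.4, 73.5, 50.1 and 88.6 CPM. GF replicates 1, 2 and 5 lay below every CONV-R mouse and replicates 4 and 6 inside the CONV-R range, so that the GF group was split. The difference did not pass the test (Log2FC -0.18, SE 0.16, 95% interval -0.52 to 0.15; edgeR adjusted p = 0.533); the interval holds both falls and small rises.

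The 5′ sequences of *Icam1* and *Sele* are shown because both are textbook NF-kB targets whose levels here did not pass a test. They are RefSeq windows (GRCm38.p6) of 300 bases that reach from upstream of the gene's start into its first bases, and capitals mark each match to GGNNNTTCC, a relaxed NF-kB motif chosen after the sequences were seen and searched on both strands. The windows lie at chr9:21015690-21015989 and chr1:164047984-164048283, both on the plus strand.
Icam1: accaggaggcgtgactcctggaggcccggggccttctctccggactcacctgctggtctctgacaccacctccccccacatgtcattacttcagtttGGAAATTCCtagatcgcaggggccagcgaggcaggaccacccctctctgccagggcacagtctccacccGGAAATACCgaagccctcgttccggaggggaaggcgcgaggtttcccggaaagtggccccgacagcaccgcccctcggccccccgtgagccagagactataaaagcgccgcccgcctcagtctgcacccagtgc
Sele: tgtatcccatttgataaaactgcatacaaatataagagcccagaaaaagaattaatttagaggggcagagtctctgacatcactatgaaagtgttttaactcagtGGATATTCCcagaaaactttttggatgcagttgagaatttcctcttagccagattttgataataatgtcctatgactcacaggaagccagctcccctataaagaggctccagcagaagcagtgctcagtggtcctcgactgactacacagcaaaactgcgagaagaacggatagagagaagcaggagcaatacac
*Icam1* has matches 153 and 84 bases before its start (GGAAATTCC and GGAAATACC), counted from RefSeq's start, which lies upstream of the GENCODE start given above, and *Sele* has GGATATTCC at 145 bases. Of the 5 members with a window, *Selp* also had a match 14 bases before its start (GGAAAGGCC), *Madcam1* had matches at 83 and 70 bases (GGAAAGCCC and GGAAAGTCC), and *Alcam* had none. The letters occur in 6070 of 32851 promoter windows (18.5%). A match is a description of the sequence and no site of binding; *Vcam1*, *Icam2* and *Selplg* have no window in the table used.

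Because *Icam1* and *Vcam1* are usually induced together, levels of the members were also set against *Icam1* within each mouse, as log2 ratios of CPM with a prior count of 2. The ratio of *Vcam1* to *Icam1* lay between 0.96 and 1.19 in CONV-R mice, a narrow range with a mean of 1.06 ± 0.10 (SD, n = 6). In GF mice 1, 2, 4, 5 and 6 it was 2.42, 2.69, 1.91, 2.25 and 1.64, with a mean of 2.18 ± 0.41 (SD, n = 5). The groups did not overlap, and the difference of 1.13 had an exact permutation p of 0.00216 (Benjamini-Hochberg adjusted over 4 ratios, 0.00866). It thus exceeded the spread between mice, and the wider spread of the GF ratios was not itself tested. *Icam2* to *Icam1* rose from 0.08 ± 0.40 to 0.86 ± 0.30, a difference of 0.78 (exact permutation p = 0.0152, adjusted 0.0303), with overlap of the groups through CONV-R replicate 1 (0.75). The ratios of *Selp* and *Alcam* to *Icam1* differed by -0.58 and -0.26 and did not pass (exact permutation p = 0.355 and 0.442; adjusted p 0.442 for both). They moved to -0.14 and -0.065 without GF replicate 4 and to -0.91 and -0.47 without GF replicate 2.

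**Figure D4:**
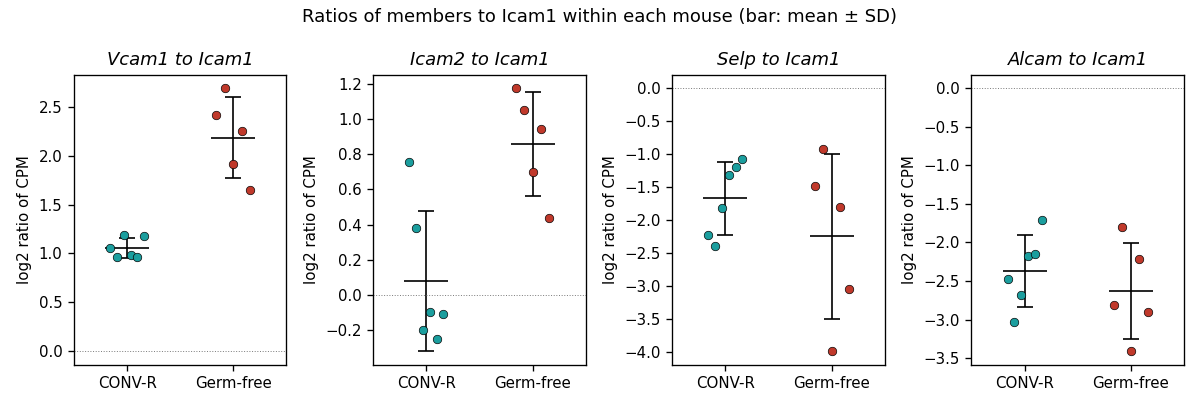
Log2 ratio of 4 members to Icam1 within each mouse (vertical axes, each panel on its own scale) in CONV-R (turquoise) and Germ-free (red) mice; black bars are the mean ± SD. The CONV-R ratios of Vcam1 to Icam1 bunch between 0.96 and 1.19, below all GF ratios, which start at 1.64.

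*Alcam* (activated leukocyte cell adhesion molecule, ENSMUSG00000022636, chr16:52248996-52454074, minus strand) encodes the partner of CD6 on T cells and also binds itself between neighbouring cells. In CONV-R mice it ran from 7.99 CPM through a median of 14.0 CPM to 22.7 CPM. The GF mice had 7.28, 14.9, 6.76, 10.7 and 11.7 CPM. GF replicates 1 and 4 were below every CONV-R mouse and the groups overlapped. The Log2FC of -0.49 (SE 0.26, 95% interval -1.05 to 0.07) did not pass edgeR's quasi-likelihood test (adjusted p = 0.280).

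*Selp* (P-selectin, ENSMUSG00000026580, chr1:164115264-164150026, plus strand), which endothelium and platelets hold in granules, was the most variable of the 5 more abundant members. CONV-R levels had a lowest value of 12.4 CPM, a median of 25.5 CPM and a highest value of 35.5 CPM. GF levels were 18.5, 27.6, 4.48, 14.3 and 10.6 CPM, with replicates 4 and 6 below every CONV-R mouse and replicate 2 above the CONV-R median. Its coefficient of variation was 38.8% in CONV-R and 57.6% in GF mice, where counting error alone would give 6.31% and 10.04%; spread from the mice, the sort and the cDNA amplification cannot be told apart. The Log2FC was -0.66 (SE 0.36, 95% interval -1.41 to 0.10; edgeR adjusted p = 0.286). Platelet markers did not separate the groups, with summed levels of 20.3 to 29.5 CPM in CONV-R and 16.1 to 21.8 CPM in GF mice (exact permutation p = 0.108). Exons of *Selp* overlap the opposite-strand genes *Gm16548*, with up to 52 counts in a library, and *Gm16587*, with up to 26, and the sources used here do not state whether counting used strand. *Vcam1* overlaps *Gm43109* in the same way, at 1 to 7 counts a library, and *Icam1* overlaps *Gm47079*, which is not listed.

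*Sele* (E-selectin, ENSMUSG00000026582, chr1:164048234-164057677, plus strand), which endothelium makes after cytokine stimulation, was near the limit of detection in both groups. It had 41 counts over all CONV-R libraries, at most 1.09 CPM in a mouse with a median of 0.484 CPM, and 29 counts over the GF libraries, at 0.390, 0.869, 0, 1.06 and 0.814 CPM. CONV-R replicate 3 and GF replicate 4 had 0 counts, which allows up to 0.368 and 0.286 CPM if 3 counts are taken as the limit; such limits cover counting error only. The groups overlapped fully (means 0.516 ± 0.428 CPM, n = 6, and 0.626 ± 0.427 CPM, n = 5; exact permutation p = 0.677), and a difference was not detectable at this depth.

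*Madcam1* (mucosal addressin, ENSMUSG00000020310, chr10:79664559-79668537, plus strand), the ligand that guides gut-homing lymphocytes carrying the integrin alpha4 beta7 into intestinal tissue, had 13 counts over the CONV-R and 5 over the GF libraries. Only CONV-R replicate 4 (7 counts, 0.562 CPM) and GF replicate 2 (4 counts, 0.386 CPM) had more than 3 counts. Of the 11 mice 5 had none: 2 CONV-R and 3 GF. Means of 0.168 ± 0.211 CPM (n = 6) and 0.0963 ± 0.167 CPM (n = 5) did not separate (exact permutation p = 0.567).

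*Selplg* (PSGL-1, ENSMUSG00000048163, chr5:113818536-113832644, minus strand) is the selectin ligand on leukocytes rather than on the vessel. Its level in CONV-R mice had a lowest value of 0.205 CPM, a median of 0.818 CPM and a highest value of 1.71 CPM. It was 1.17, 0.483, 2.67, 0.925 and 2.03 CPM in GF mice, each level resting on 5 to 28 counts. GF replicates 4 and 6 stood above every CONV-R mouse, and the groups overlapped. The Log2FC of 0.80 (SE 0.54, 95% interval -0.35 to 1.95) did not pass edgeR's quasi-likelihood test (adjusted p = 0.409). Of 8 pan-leukocyte markers 7 were tested and 2 were higher in GF mice, and the most abundant, *Ptprc* (CD45), had 17.8 and 23.7 CPM (Log2FC 0.40, adjusted p = 0.318). Their summed level ran from 26.4 to 59.6 CPM in CONV-R and from 40.1 to 120 CPM in GF mice (exact permutation p = 0.0411; 0.0635 to 0.103 when any of CONV-R replicates 2 to 6 was left out, and 0.0667 and 0.129 when GF replicate 2 or 6 was), and its part in the *Selplg* level was not tested.

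The genes around these members were grouped by their place in adhesion. Together 104 of the 121 genes of 6 lists were tested and 18 (17.3%) passed, 15 higher and 3 lower in GF mice, with a median Log2FC of 0.171, where 7.48% of all tested genes passed, 4.8% higher and 2.67% lower. The lists were chosen with results known, so nothing is read from this difference. Of 16 tested genes for selectin ligands and the enzymes that build their sugars 3 were higher and none lower (list median 0.14). *Cd34*, whose sugar-coated form on high endothelium is a ligand of L-selectin, rose from 12.6 to 29.2 CPM (Log2FC 1.20, adjusted p = 0.00183); it is also 1 of the 4 macrovascular EC markers that were higher. *Cd24a*, a ligand of P-selectin on some cells, and *Cd44*, a ligand of hyaluronan and of E-selectin, rose with Log2FC 2.44 and 1.81 (edgeR adjusted p = 0.00837 and 0.0164). The enzymes of the list did not pass.

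Of the leukocyte receptors for the members, 8 were tested and none passed edgeR's quasi-likelihood test (adjusted p), although 8 of 8 had a positive Log2FC (median 0.58), as had 49.1% of all tested genes, and 5 had an unadjusted p under 0.05; DESeq2 passed 2 and voom 0. Several, such as *Itgal* and *Itgb2* of LFA-1, are leukocyte genes, and 8 of 11 Kupffer cell and 2 of 7 pan-leukocyte markers were higher in the same libraries; the part of these cells was not tested. The 2 with the highest level, *Itga9* (786 and 1066 CPM, Log2FC 0.44, adjusted p = 0.0780) and *Itgb1* (665 and 864 CPM, Log2FC 0.38, adjusted p = 0.129), are integrin chains that ECs also make. Other endothelial adhesion genes gave 2 of 18 higher and none lower (median 0.28), *Jam2*, a junctional molecule that also binds VLA-4 (1255 to 2079 CPM, Log2FC 0.73, adjusted p = 0.0103), and *Esam*, a junctional molecule of endothelium and platelets (Log2FC 0.62, adjusted p = 0.0261). The sorting markers of that group did not pass: *Pecam1* (CD31) had a Log2FC of 0.46 (adjusted p = 0.112) and *Mcam* (CD146) of 0.37 (adjusted p = 0.0764), and *Eng* (CD105) had 0.26 (adjusted p = 0.336).

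Inside the cell, ICAM-1 and VCAM-1 are tied to actin by linker proteins. Of 15 genes of linkers and their partners 2 were higher and 1 lower (median 0.14). Among them *Flna*, a filamin, rose (Log2FC 0.41, adjusted p = 0.0297), and *Ezr*, the linker ezrin, fell from 17.42 to 9.76 CPM (Log2FC -0.84, adjusted p = 0.0131). Of 8 tested proteases and their partners that shed adhesion molecules 1 was higher, *Adam15* (Log2FC 0.72, adjusted p = 0.0236), and without GF replicate 1 or 6 the count was 0.

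The 39 genes of the inducing pathway (receptors for TNF, IL-1, interferon and endotoxin, NF-kB subunits and inhibitors, and the endothelial factors that act at these promoters) gave 7 higher and 2 lower genes (median 0.10). *Klf2* and *Klf4*, flow-responsive factors known to restrain *Vcam1* in other endothelia, rose from 169 to 328 CPM and from 49.7 to 101 CPM (Log2FC 0.96 and 1.03; adjusted p = 0.00150 and 0.000880). *Klf6* and *Fli1*, an ETS factor of endothelium, rose too (Log2FC 0.68 and 0.53; adjusted p = 0.00673 and 0.00628). *Tnfaip3*, the NF-kB-induced inhibitor A20, fell from 61.6 to 31.4 CPM (Log2FC -0.97, adjusted p = 0.00837). The other 4 genes that passed were *Erg*, an endothelial ETS factor, with a Log2FC of -0.68 (adjusted p = 0.0122), and, higher, *Ifngr1* and *Il4ra*, chains of the receptors for interferon gamma and IL-4, and the transcription factor *Stat3* (Log2FC 0.60, 0.69 and 0.50; adjusted p = 0.0154, 0.0261 and 0.0149). The receptor *Tlr4* for endotoxin, the TNF receptor *Tnfrsf1a* and the NF-kB genes *Nfkb1*, *Rela* and *Nfkbia* did not pass, with Log2FC of 0.23, 0.26, 0.13, 0.42 and -0.0026; these 9 genes were picked after their values were seen.

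**Figure D5:**
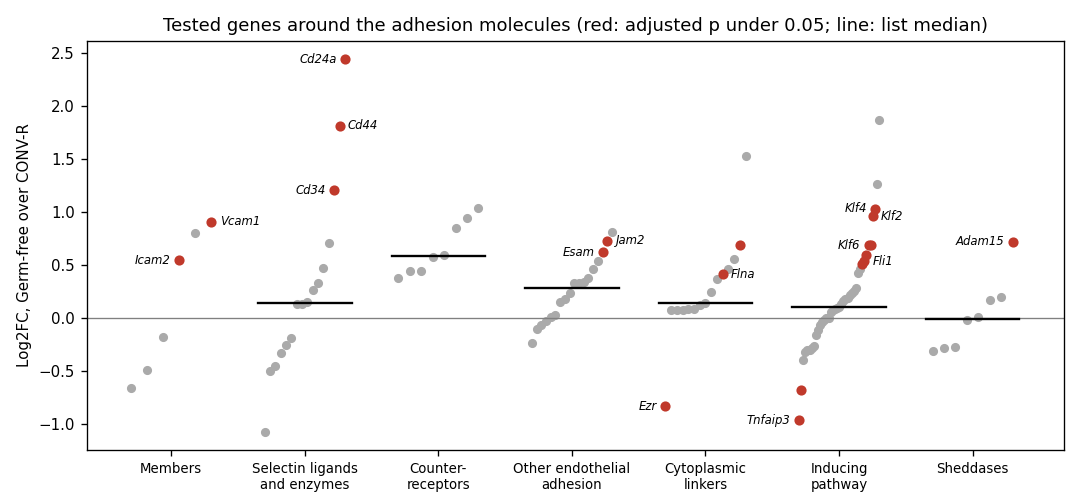
Log2FC, GF over CONV-R (vertical axis), of the tested members and of the tested genes of 6 lists, with 1 point per gene, red where edgeR's adjusted p was under 0.05, and a line at each list's median. The leukocyte receptors (counter-receptors) all lie above 0 with none red, and the inducing pathway holds Klf2 and Klf4 near 1 and Tnfaip3 near -0.97.

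Other cell types in the sort were followed by their markers. Macrovascular EC markers, of which 4 of 12 tested were higher, summed to 773 to 1259 CPM in CONV-R and 1099 to 1858 CPM in GF mice (exact permutation p = 0.039; 0.0556 to 0.0952 when any of CONV-R replicates 1 to 4 or GF replicates 1, 2 and 6 was left out), and their part in *Vcam1* and *Icam2* was not tested. These markers did not all move alike. Of the 12, 9 had a positive Log2FC, and the rest a negative one that did not pass. The most abundant, *Ephb4*, did not pass either (Log2FC 0.42, edgeR adjusted p = 0.154). Lymphatic EC markers, nearly all from *Flt4*, which sinusoidal ECs also express, summed to 1255 to 1845 and 1386 to 2329 CPM (exact permutation p = 0.0281; 0.0524, 0.0524 and 0.0571 without GF replicate 1, 4 or 6). Lymphocyte and NK markers were lower in GF mice (13.1 to 24.3 against 8.99 to 12.9 CPM, exact permutation p = 0.0108), with *Cd3e* at 0.556 and 0.440 CPM. Cholangiocyte markers, mostly *Spp1*, were higher (0.137 to 8.96 against 13.6 to 36.8 CPM, exact permutation p = 0.00216). Neutrophil and monocyte markers (p = 0.429), stellate cell markers, nearly all from *Hgf*, with *Lrat* at 4.92 and 1.89 CPM (p = 0.0519; 0.0318, 0.0159 and 0.0381 without CONV-R replicate 1 or 4 or GF replicate 1) and hepatocyte markers (p = 0.396) did not pass; these p-values are from exact permutation tests and are not adjusted over the 11 lists.

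For each tested member the genes most alike in their variation within groups were sought, by Pearson's r of log2 CPM centred on the group means over 11 libraries. They were *Anln* and *Slc22a17* for *Vcam1* (r 0.91 and 0.90), *Cdkn1a* and *Pigq* for *Icam2* (0.93 and 0.92), *Arl6ip1* and *B4gat1* for *Icam1* (0.95 and 0.95), *C1qtnf9* and *Slc25a36* for *Selp* (0.96 and 0.93), *Enpp3* and *Sema7a* for *Alcam* (0.92 and 0.92) and *Cog8* and *Ighm* for *Selplg* (0.94 and 0.91). These are the highest values over the other tested genes, taken over libraries that share depth and cell make-up, and are given as a description.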

How the data were processed

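RNA of sorted liver ECs from 6 CONV-R and 5 GF mice was sequenced, with 1 library per mouse. Per the labels and the study's methods, the authors trimmed reads with Trim Galore, mapped them to GRCm38 (mm10) with STAR and counted them on genes; they left out 1 further GF library with few mapped reads. They deposited raw counts, and values on a log2 scale normalized across libraries, which were used in 1 alternative. Strand setting and annotation release are not given in the sources used here.

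Genes were filtered with filterByExpr, scaled by TMM and compared by the quasi-likelihood test of edgeR 4.0.16 in R 4.3.3, with Benjamini-Hochberg adjustment and a threshold of 0.05. Single values per mouse were compared by two-sided exact permutation tests over 462 assignments. Library totals of 7242717 to 16164588 counts and the 5 and 6 mice limit the precision. Lengths and positions came from GENCODE M21 (GRCm38), which held 8 of 8 members, and promoters from RefSeq. The scripts were tested on simulated data.

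The named genes were the 8 members; in each pathway list up to 5 genes with the smallest adjusted p under 0.05, or else the 2 most abundant; the sorting markers; abundant and defining markers; and the 2 genes most alike to each tested member; 1 gene that this takes from the linker list is not reported here. In the text, 9 genes of the inducing pathway and *Itgal* and *Itgb2* were added outside this rule after their values were seen. Members and lists were chosen with earlier results of these data known. Alternatives were DESeq2 1.42.0, limma 3.58.1 (voom, and limma on the deposited log2 values), DESeq2 size factors, a filter left out or set to 10 counts per library, robust dispersions, counts thinned to the smallest library, other prior counts, a replicate block and each mouse left out. The Kupffer covariate and the correlations between members were added after the data were seen. Plots used matplotlib 3.10.9.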

Additional observations from a re-analysis of the deposited data

Results flagged for a closer look

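Of 48 group values examined, 5 had a highest mouse far from the rest of its group by Dixon's criterion, which chance meets in about 1 of 20 groups. *Madcam1* reached 0.562 CPM in CONV-R replicate 4, where the next mouse had 0.205 CPM, and 0.386 CPM in GF replicate 2, where the next had 0.0952 CPM; these are 7 and 4 counts. The summed Kupffer cell markers reached 970 CPM in GF replicate 6, next to 395 CPM in the following mouse, and the summed pan-leukocyte markers reached 120 CPM in the same library, next to 60.0 CPM. The summed platelet markers reached 29.5 CPM in CONV-R replicate 3, next to 23.5 CPM.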

How the results depend on the processing

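*Vcam1* kept its direction and its call in all 10 other fits, with a Log2FC of 0.79 to 1.02, and with each mouse left out (0.83 to 1.02); *Icam2* kept both in these 10 fits (0.49 to 0.58) but lost the call without 7 of the 11 mice (0.47 to 0.66 over all mice left out). *Icam1*, *Selp*, *Alcam* and *Selplg* kept their direction and passed in no fit run (8 of the 10 for *Selplg*, which the 10-count filter and the thinned counts left out), with Log2FC of -0.33 to -0.11, -0.99 to -0.42, -0.67 to -0.31 and 0.45 to 1.15 with a mouse left out. The count of members that passed was 2 in the 10 fits and 1 to 2 with a mouse left out. The count of all genes was 965 with edgeR, 1527 with DESeq2 and 622 to 1260 with a mouse left out, and that of the 6 lists 18 and 15 to 29 (29 without GF replicate 5); the cause was not tested. Counts of passing genes that moved by over 1.5 times were those of the leukocyte receptors (0 in the primary fit, 2 with DESeq2, 1 without a filter, with drawn-down counts or with the block, 0 to 3 with a mouse left out), of other endothelial adhesion genes (2, against 4 with DESeq2 or the block and 1 to 6 with a mouse left out), of selectin ligands (3, against 5 with the block), of linkers (3, against 2 to 5 with a mouse left out) and of sheddases (1, against 0 to 1).

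With the Kupffer marker sum as a covariate, chosen after seeing the data, 91 genes and 0 members passed, with Log2FC of 0.87 for *Vcam1*, 0.38 for *Icam2*, -0.38 for *Icam1*, -0.85 for *Selp*, -0.93 for *Alcam* and 0.35 for *Selplg*. *Sele* entered edgeR without the filter and DESeq2, and *Madcam1* only edgeR without the filter. The edgeR Log2FC of both changed sign with a mouse left out. *Sele* had 0.19 (-0.0829 to 0.53, with -0.0462 without CONV-R replicate 3 and -0.0829 without GF replicate 5), and 0.23 with DESeq2 (adjusted p = 0.920). Its CPM difference of 0.110 kept its sign (0.00211 to 0.267). *Madcam1* had -0.78 (-2.35 to 0.0431, the last without CONV-R replicate 4), with a CPM difference of -0.0714 (-0.144 to 0.00753). The median Log2FC of all tested genes stayed between -0.027 and 0.00426.

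Replicate numbers occur in both groups, but same-numbered libraries deviated together (correlation over 0.1) in 1 of 5 pairs (-0.0144 to 0.201), and 3 of 10 libraries correlated best with their own number. With the number as a replicate block, 1101 genes passed, against 931 in the same 10 libraries without it, and 2 members passed in each (with the block, *Vcam1* Log2FC 1.02, *Icam2* 0.58). The fit on these libraries without the block is the same as the fit without CONV-R replicate 3. It is therefore counted both among the other fits and among those with a mouse left out. Differences in *Sele* and *Madcam1* are limited by depth.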

Other observations

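Of 15 pairs among the 6 tested members, correlated over 11 libraries on log2 CPM centred on the group means, none passed Benjamini-Hochberg adjustment in the pooled data. The pair with the smallest p was *Selp* and *Alcam* (Pearson's r 0.75, permutation p = 0.0106, adjusted 0.159; Spearman's rho 0.67, permutation p = 0.0411, adjusted 0.382), with r 0.55 after the 2 mice farthest from the median of *Selp* were left out. *Icam1* and *Vcam1* had r 0.43 (permutation p = 0.146, adjusted 0.411) and rho 0.36 (permutation p = 0.247, adjusted 0.499), with r 0.22 after the 2 mice farthest from the median of *Icam1* were left out. Within the 6 CONV-R mice alone, examined later, *Icam1* and *Vcam1* had r 0.97 (exact permutation p = 0.00417, adjusted over 15 pairs 0.0312) and rho 0.94 (exact permutation p = 0.0167, adjusted 0.125), and *Selp* and *Alcam* had r 0.92 (exact permutation p = 0.00139, adjusted 0.0208) and rho 1 (exact permutation p = 0.00278, adjusted 0.0417). Without the 2 mice farthest from the median, r was 0.84 and 0.94 over 4 mice. No other pair passed there. In the 5 GF mice, given as a description without a test, r was -0.03 for *Icam1* and *Vcam1* and 0.64 for *Selp* and *Alcam*. A difference between the groups in these relations was not tested.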
